A study of Mus musculus with 16 samples.

Results

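Blood coagulation and fibrinolysis are described here through 32 genes, of 21959 listed, in RNA from tumor tissue of mice with colorectal liver metastasis. The genes were chosen by name and divided by the known main source of their proteins. The liver-secreted class has 19 members: F2, F5, F7, F9, F10, F11, F12, F13b, Fga, Fgb, Fgg, Plg, Proc, Pros1, Proz, Klkb1, Kng1, Cpb2 and Hrg. The tumor and vessel class has 11: F3, F8, F13a1, Plat, Plau, Plaur, Procr, Thbd, Tfpi, Tfpi2 and Vwf. The vitamin K cycle class has 2, Ggcx and Vkorc1.

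Samples came from 16 male wild-type C57BL/6 mice, injected at 6 weeks of age with MC38 cells, a mouse colon carcinoma line, into the inferior hemispleen, from which the cells seed the liver. There were 4 groups of 4 mice: a PBS control, SB525334 at 20 mg/kg daily by gavage, KN046 at 10 mg/kg by repeated intraperitoneal injection, and both agents, called the combination. SB525334 is a small-molecule blocker of ALK5, the TGF-β receptor I kinase. KN046 is 1 antibody with arms against both PD-L1 and CTLA-4. MC38 is 1 cell line and the mice carry no genetic change, so the groups differ by treatment alone in the labels. The labels do not say how the tumor was cut from the liver, and nothing in them ties a library to a stated number of tumors.

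Clotting is a cascade of plasma proteases. Tissue factor on cells outside the vessel binds factor VII, the resulting factor Xa and its cofactor factor V turn prothrombin into thrombin, and thrombin cuts fibrinogen into fibrin. Most of these proteins are made by hepatocytes. Vessel walls hold the counterweight: thrombomodulin and the endothelial protein C receptor activate protein C, and plasminogen activators made by many cells, tumor cells among them, turn plasminogen into plasmin, which dissolves fibrin.

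Total counts per mouse ran from 18368994 to 23877131. Levels are CPM (counts scaled to a library of standard size) after TMM scaling, and changes are log2 fold changes ± SE from 1 edgeR quasi-likelihood fit over all 16 mice, in which 13968 genes were tested. A gene is called higher or lower when its Benjamini-Hochberg adjusted p is under 0.05. Of the 32 genes 31 were tested, and Vkorc1 was too low. The control mice fell into pairs, 1 with 2 and 3 with 4, whose libraries were more alike (median chi-square per gene 1.25 and 0.956) than those of any other mice of a group (2.82 or more). The summed CPM of 10 endothelial genes was 228 and 225 in control mice 1 and 2, against 104 and 107 in mice 3 and 4, so the calls of F8, Vwf, Procr, Tfpi2 and Plau are also given against each pair alone. Nothing in the labels says whether the pairs share an animal, a culture or a day, so p-values may measure technical spread in that group.

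The liver-secreted genes were lower with SB525334 and far lower with the combination. Of the 11 tumor and vessel genes, edgeR called F8, Vwf, Tfpi2 or Procr against control, and the other 7 were not called. SB525334 lowered 18 of the 19 liver-secreted genes against control, with a median log2 fold change of -3.59 over the 19, and the combination lowered the same number with a median of -9.36. KN046 lowered 0 of the 19 by edgeR, with 1 (Klkb1) at an unadjusted p under 0.05 and 0 by DESeq2. Its median was -0.45 and its fitted values ran from -1.27 to 0.10. The background of these counts was 9.22% of all genes tested called lower with SB525334, 2.4% under KN046 and 9.74% with the combination, by edgeR, and 9.61%, 4% and 11.1% in either direction. The KN046 background of 559 genes was not stable: it was 2096 without KN046 mouse 2, 21 without KN046 mouse 1, 60 without KN046 mouse 3, 65 to 157 without single control mice, 8 against control mice 1 and 2 alone and 0 with the control pairs merged. All 19 genes were lower in every treated mouse than in any control mouse with SB525334 and with the combination, and F7, F10 and Klkb1 were so with KN046. Of all genes tested, 13.3%, 12.1% and 6.65% were separated in that way with SB525334, the combination and KN046, and 5%, 5.32% and 4.94% in the higher direction. Over all genes tested, the median log2 fold change lay within 0.03 of 0 in each comparison with control. In bulk RNA of this kind, fewer hepatocytes in the piece of tissue and less RNA per hepatocyte cannot be told apart.

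The mouse fibrinogen genes lie side by side on chromosome 3 (GRCm39), with Fgg at 82915030 to 82922363 and Fga at 82933383 to 82940934 on the plus strand and Fgb at 82947448 to 82957170 on the minus strand. They encode the γ, α and β chains of fibrinogen. Their upstream sequences are shown because these genes held the highest control levels of all 32 per length and moved together. Each run is the 120 bases before the first annotated exon, 5′ to 3′ on the gene's strand. The positions, on GRCm39, are chr3:82933263-82933382 (plus) for Fga, chr3:82957171-82957290 (minus) for Fgb and chr3:82914910-82915029 (plus) for Fgg. Sequence came from RefSeq's mouse promoters and was placed on GRCm39 by exact match. Capitals mark letters that fit a C/EBP pattern (TTGCNNAA, either strand) or an HNF1 pattern (GTTAAT, either strand), both known from liver promoters.
Fga: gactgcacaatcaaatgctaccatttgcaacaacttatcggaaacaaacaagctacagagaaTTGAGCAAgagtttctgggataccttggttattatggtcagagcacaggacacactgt
Fgb: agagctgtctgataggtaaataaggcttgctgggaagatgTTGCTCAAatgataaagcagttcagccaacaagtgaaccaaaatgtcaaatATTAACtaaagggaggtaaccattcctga
Fgg: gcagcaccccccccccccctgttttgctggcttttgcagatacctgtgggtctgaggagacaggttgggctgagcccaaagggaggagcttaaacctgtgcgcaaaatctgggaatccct
Fga held 1 C/EBP match, Fgb held 1 of each, and Fgg held none in these 120 bases. The printed runs end 77 (Fga), 0 (Fgb) and 1 (Fgg) bases before the gene's start in RefSeq. In the 77 bases not printed for Fga, an HNF1 match (ATTAAC) begins 43 bases before that start. Over the 250 bases before the start in RefSeq's table, 25 of the 32 genes could be matched by symbol, 16 of them liver-secreted. The C/EBP letters were in 6 of the 16 (37.5%), against 9.56% of all 32851 promoters, and in 2 of 7 tumor and vessel genes. The HNF1 letters were in 4 of the 16 (25%), against 6.43% of all promoters, and in 1 of 7 tumor and vessel genes. A match describes letters and not a site in use.

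Fga stood at 967, 999.6, 1033 and 1010.4 CPM in the control mice. With SB525334 it was 141, 128, 102 and 33.8 CPM, and with the combination 0.822, 0.993, 1.80 and 0.754 CPM. Neither treated group overlapped control or the other, and mouse 4 was the low one of the SB525334 group. With KN046 Fga was 331, 1549, 1179 and 974 CPM, a range that spans the control mice, with mouse 1 lowest. The log2 fold change of Fga by edgeR was -3.30 ± 0.42 (SE) with SB525334 (adjusted p = 1.75e-05). In the combination it was -9.85 ± 0.59 (adjusted p = 1.48e-09). Its change with KN046 was 0.01 ± 0.38 (adjusted p = 0.992). Fgb and Fgg were likewise lower with SB525334 and lowest with the combination. Fgb was at 929 to 982 CPM in control, 37.0 to 143 in SB525334 mice, 267 to 1329 in KN046 mice and 0.773 to 1.34 in combination mice. Fgg averaged 397 ± 20.1 CPM (SD, n = 4) in control, 42.2 ± 19.8 in SB525334 mice, 368 ± 160 in KN046 mice and 0.601 ± 0.211 in combination mice.

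**Figure D1:**
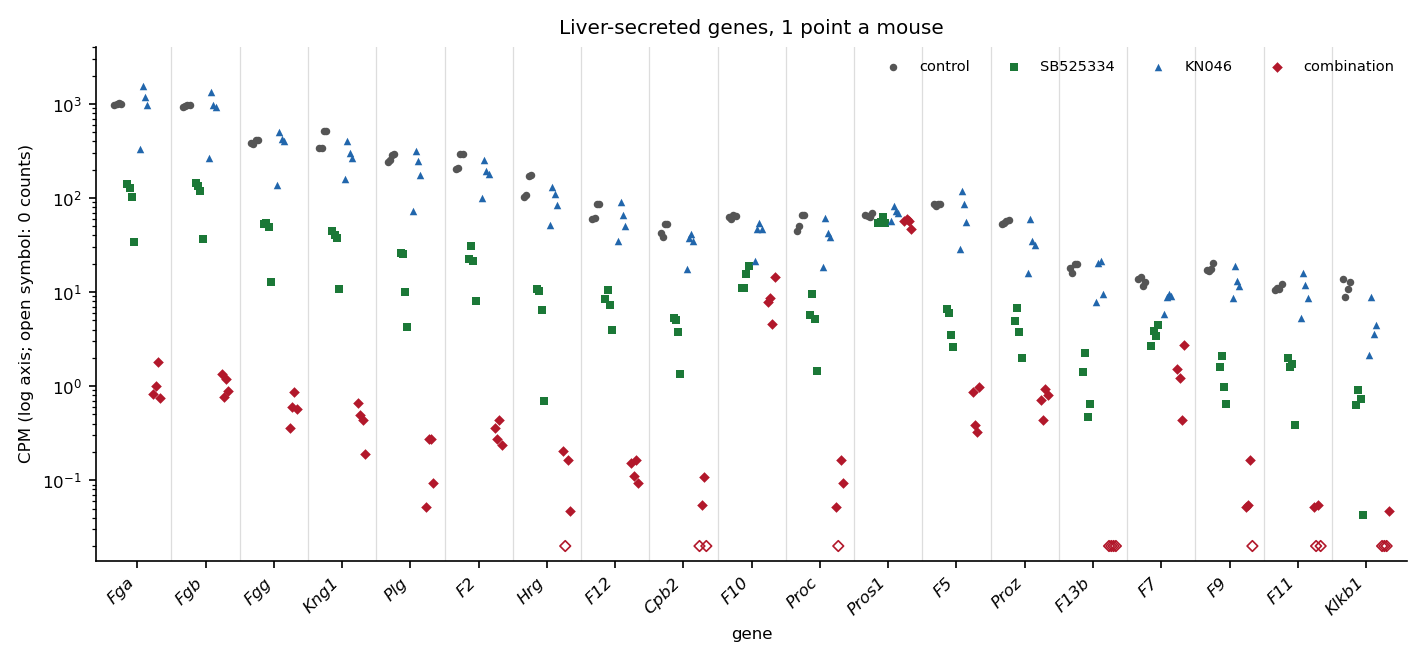
Level of each of the 19 liver-secreted genes in CPM (log axis) in every mouse, ordered by control level per kb of exon. Grey circles are control, green squares SB525334, blue triangles KN046 and red diamonds the combination, and an open symbol marks a mouse with 0 counts. The combination mice sit at 1.80 CPM or below for Fga, while Pros1 stays between 46.6 and 81.5 CPM in all 16 mice.

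Per length, with exon lengths from GENCODE M39, fibrinogen led the control tumors at 313 CPM per kb for Fga, 251 for Fgb and 164 for Fgg. Kng1, which encodes kininogen of the contact pathway, followed at 130 CPM per kb, and Plg, plasminogen, at 71.9. In the combination the order turned over: Plaur (24.4), Plat (18.4), Procr (15.8) and Plau (14.7 CPM per kb) stood first, and Fga had dropped to 0.341. These are levels and not differences, and neighbours in the order may not differ beyond the spread of the mice.

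Most other factors of the cascade moved with fibrinogen, and F7 and F10, which fell less, are described further on. Prothrombin (F2) was 205, 206, 297 and 290 CPM in control, 22.4, 30.9, 21.3 and 8.01 with SB525334, 99.8, 252, 192 and 180 under KN046, and 0.359, 0.276, 0.437 and 0.236 with the combination. KN046 overlapped control, and the other treated groups did not. By edgeR the log2 fold change of F2 was -3.59 ± 0.33 with SB525334 (adjusted p = 9.02e-07), and in the combination it was -9.56 ± 0.49 (adjusted p = 2.59e-10). Factor V (F5), the cofactor of factor Xa, went from 82.1 to 87.2 CPM in control to between 2.63 and 6.69 with SB525334 and between 0.328 and 0.99 with the combination. F9 and F11, whose products act upstream of factor X, were at 16.6 to 20.5 and 10.4 to 12.3 CPM in control and at 0.164 CPM or below in every combination mouse. F12 and Klkb1, which encode the contact factor XII and prekallikrein, were at most at 0.164 and 0.0471 CPM there. Klkb1 shares 2271 exonic bases with a same-strand gene model that had 0 counts in every mouse, so its level is uncertain.

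Counts behind the combination values were small, and the folds below carry 95% exact Poisson intervals that cover counting error only. Fga (83 counts over the 4 mice) was 932-fold lower than control (interval 752 to 1170), F2 (25 counts) 770-fold (522 to 1190) and Plg (13 counts) 1590-fold (932 to 2990). With 3 counts, Cpb2, whose product protects fibrin from plasmin, was 1200-fold lower (412 to 5830). F11 with 2 counts was 431-fold lower (119 to 3560), and Klkb1 with 1 count 887-fold (159 to 35000). F13b, the carrier subunit of the fibrin-crosslinking factor XIII, had 0 counts in all 4 combination mice, against 15.9 to 20.0 CPM in control. Against a floor of 3 counts per library it was at least 118-fold lower. With F13b at that bound the median over the 19 liver-secreted genes was -9.24 in place of -9.36.

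Liver-made inhibitors and fibrinolytic proteins fell alongside the clotting factors. Plg was 242, 256, 285 and 291 CPM in control and 25.7, 25.5, 9.94 and 4.26 with SB525334, a log2 fold change of -4.04 ± 0.47 by edgeR (adjusted p = 7.67e-06). In the combination it was at 0.276 CPM or below, and the groups did not overlap. Proc, the protein C zymogen, was at 44.2 to 66.2 CPM in control, 1.46 to 9.43 with SB525334 and 0.164 or below with the combination. Hrg, a heparin- and plasminogen-binding glycoprotein, was at 101 to 174 CPM in control and at 0.205 or below with the combination. Kng1 went from between 338 and 518 CPM to between 0.189 and 0.668. Proz, which helps inhibit factor Xa, kept more, at 0.441 to 0.928 CPM in the combination against 53.4 to 58.0 in control.

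Hepatocyte RNA moved with these genes. Albumin mRNA (Alb) was at 7843 to 8414 CPM in control, 129 to 874 with SB525334, 5742 to 11060.3 under KN046 and 7.07 to 11.6 with the combination. All 15 hepatocyte marker genes were lower with SB525334 (median log2 fold change -3.94) and with the combination (median -9.67). With KN046 the median was -0.25 and edgeR called 0, with 4 at an unadjusted p under 0.05 (3 lower and 1 higher) and 0 by DESeq2. As a percent of the control mean, the median liver-secreted gene stood at 8.29% with SB525334, 73.2% under KN046 and 0.137% with the combination, beside 6.54%, 84% and 0.123% for the median hepatocyte marker. The part of hepatocyte content in these differences was not tested.

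Expressed per 1000 counts of the hepatocyte list, the median liver-secreted gene stood at 1.16 times its control ratio in SB525334 mice, 0.765 in KN046 mice and 0.293 in combination mice. In the combination, however, the urea cycle gene Ass1 made up between 71.0% and 82.7% of the counts of that list, against 1.19% or less in control, so the ratio was also taken without Ass1, a choice made after seeing the data. On that scale, 16 of 19 genes were within 2-fold of their control ratio with SB525334, 18 under KN046 and 12 with the combination, with median ratios of 1.22, 0.767 and 1.23. Of the 12, Klkb1 (1 count over the 4 combination mice), F11 (2), Cpb2 (3), Proc (6) and Hrg (8) had too few counts to resolve a 2-fold difference. In the combination the 6 genes above 2-fold were Pros1 (747 times the control ratio), F10 (135), F7 (112), Proz (11.8), F5 (7.32) and F9 (2.95), the last on 5 counts. With SB525334 the 3 above were Pros1 (17.6), F7 (6.17) and F10 (5.30). All these ratios are of group means, and SB525334 mouse 4 was by far the highest of its group for these 3 genes. Per 1000 counts, the SB525334 median and maximum were 55.4 and 191 for Pros1, 2.94 and 15.5 for F7 and 12.7 and 65.3 for F10. The control medians were 4.77, 0.968 and 4.54. Below 0.5 were Klkb1 in KN046 mice (0.431) and F13b, at 0 counts, in the combination. The F13b ratio there is not resolved. Its control ratio was 1.33 per 1000, and the list without Ass1 summed to only 11.7 to 18.9 CPM in combination mice.

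F7, F10 and Proz are neighbours on the plus strand of chromosome 8 (GRCm39), at 13076002 to 13085809, 13087293 to 13106676 and 13110576 to 13126026. F10 encodes factor X, on which the clotting pathways meet, and F7 encodes the partner of tissue factor. F10 was 62.5, 59.8, 66.2 and 64.8 CPM in control, 11.2, 10.9, 15.4 and 18.7 with SB525334, 21.3, 47.4, 54.5 and 46.8 under KN046, and 7.75, 8.55, 4.53 and 14.3 with the combination. Every treated mouse was below every control mouse, and the SB525334 and combination groups overlapped. For F10 the log2 fold change by edgeR was -2.17 ± 0.30 with SB525334 (adjusted p = 3.85e-05), -0.57 ± 0.28 with KN046 (adjusted p = 0.231) and, for both agents, -2.84 ± 0.31 (adjusted p = 1.39e-06). F7 was 13.7, 14.4, 11.5 and 12.8 CPM in control, 2.67, 3.82, 3.44 and 4.44 with SB525334, 5.86, 8.90, 9.61 and 9.09 under KN046, and 1.54, 1.21, 0.437 and 2.73 with the combination. Its log2 fold change by edgeR was -1.87 ± 0.32 with SB525334 (adjusted p = 0.000429), and for both agents it was -3.13 ± 0.35 (adjusted p = 2.01e-06).

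In the SB525334 and combination groups F7 and F10 did not follow albumin from mouse to mouse, while under KN046 Alb, F7 and F10 were all lowest in mouse 1 and highest in mouse 3. SB525334 mouse 4 had the lowest Alb of its group (129 CPM, the others at 487 to 874) and the lowest level of 15 of the 19 liver-secreted genes, yet the highest F7 and F10. Combination mouse 4 had the lowest Alb (7.07 CPM) and again the highest F7 and F10 of its group, and mouse 3 had the highest Alb (11.6 CPM) and the lowest F7 and F10. Macrophages also hold factor VII and factor X mRNA in some tissues. The summed CPM of 8 macrophage markers was 907 to 981 in control, 819 to 1252 with SB525334, 549 to 1092 under KN046 and 889 to 1016 with the combination. Of the 8, edgeR called 1 lower with SB525334 and 1 with the combination, beside 9.22% and 9.74% of all genes. The lowest marker stood at 13.2% and 7.44% of control in these groups. The part of macrophage RNA in F7 and F10 was not tested. KN046 mouse 1 was the lowest of its group for all 19 liver-secreted genes, at 5742 CPM of Alb and 549 CPM of macrophage markers.

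**Figure D2:**
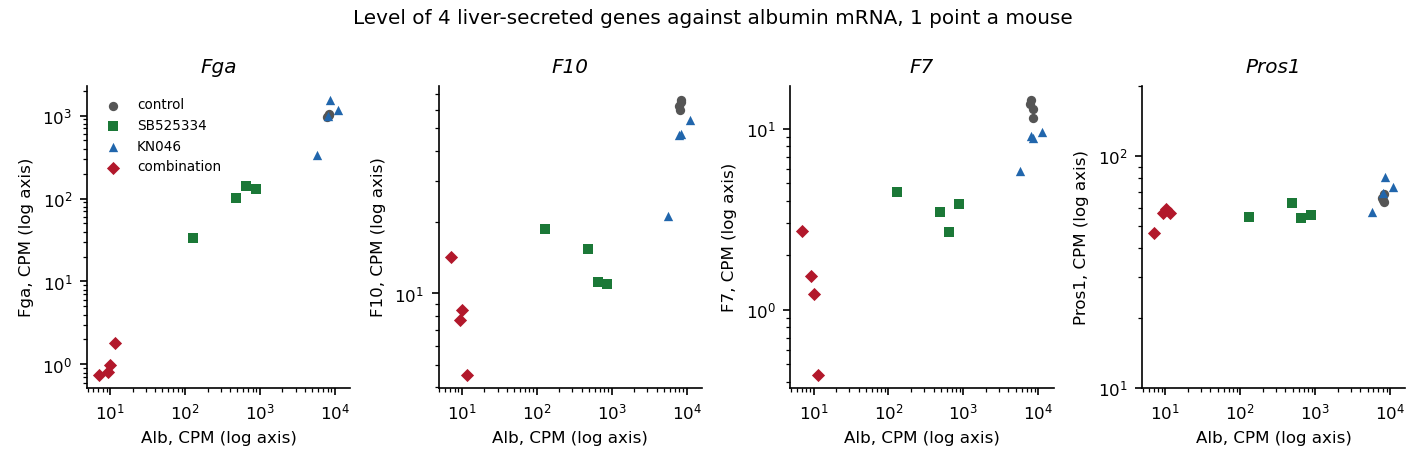
CPM of Fga, F10, F7 and Pros1 (vertical, log axis) against CPM of albumin mRNA (horizontal, log axis), 1 point a mouse, with symbols and colors as in the plot of liver-secreted genes. Fga falls along with Alb over the whole range, F10 and F7 fall less (to 4.53 and 0.437 CPM at the lowest), and Pros1 stays between 46.6 and 81.5 CPM.

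Pros1 encodes protein S, the cofactor of activated protein C, which hepatocytes, endothelium and macrophages are known to make. It was 65.7, 64.5, 63.3 and 68.6 CPM in control, 54.1, 55.5, 63.0 and 54.8 with SB525334, 57.7, 81.5, 73.5 and 69.0 under KN046, and 56.9, 59.2, 56.6 and 46.6 with the combination. All 8 mice given SB525334 were below all control mice, though by little. By edgeR the log2 fold change was -0.21 (95% interval -0.43 to 0.02, adjusted p = 0.314) with SB525334 and, for both agents, -0.26 (-0.48 to -0.03, adjusted p = 0.151), so neither was called. The 250 bases before the start of Pros1 held 15 CpG and 64.4% G and C. The other 15 liver-secreted genes matched held 0 to 7 CpG (median 3), and all promoters had a median of 6. The 7 tumor and vessel genes matched also had a median of 3. Of these, F3 held 24, Procr 13 and Plaur 6, F13a1 and Tfpi held 3, and F8 and Tfpi2 held 2. A link of CpG content to level was not tested.

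**Figure D3:**
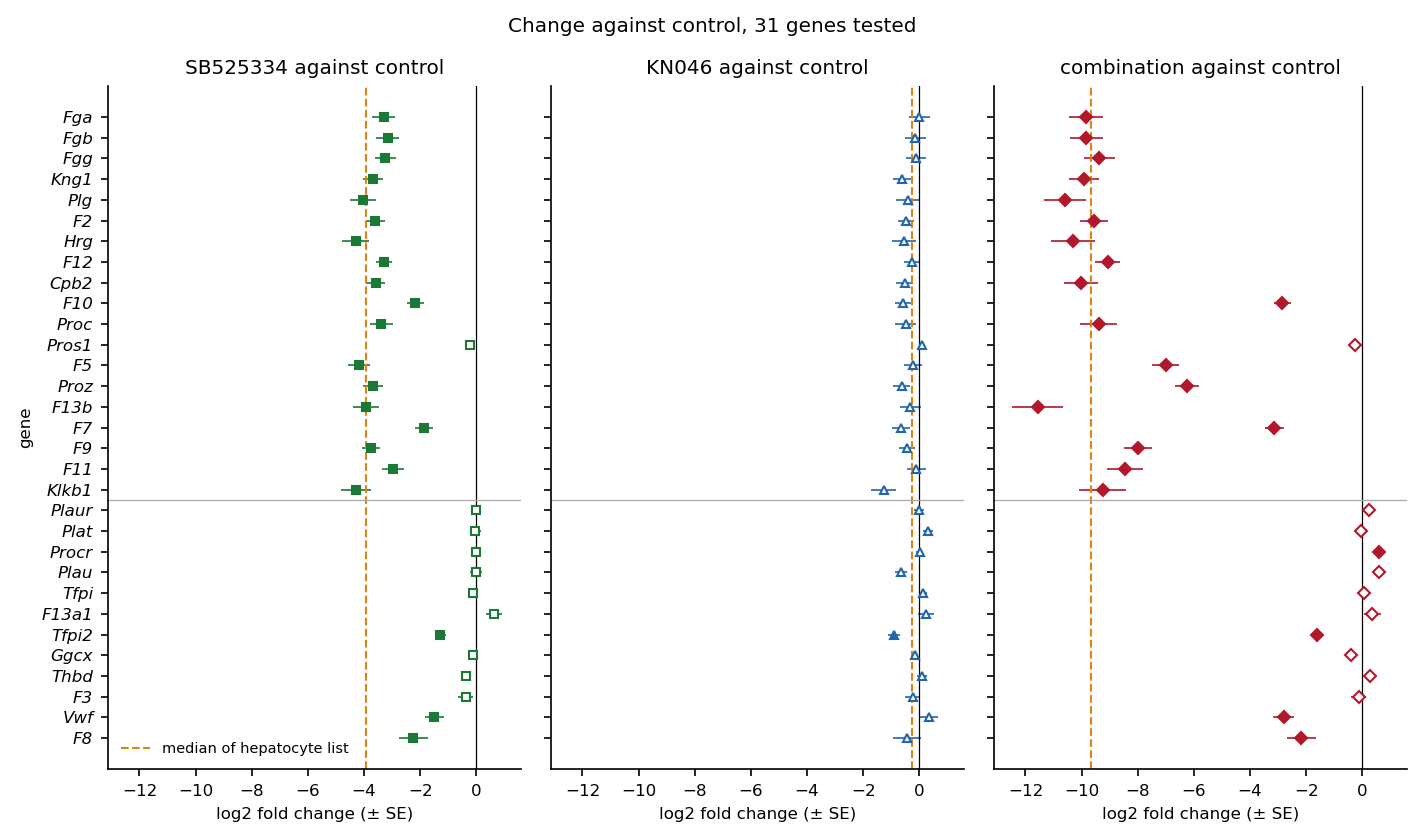
Log2 fold change ± SE against control for the 31 genes tested, in 3 panels for SB525334, KN046 and the combination, with filled symbols for genes called by edgeR. The dashed line is the median of the 15 hepatocyte markers (-3.94, -0.25 and -9.67), and the grey line separates liver-secreted genes from the rest. F13b in the combination is a fitted value from 0 counts and is no bound.

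The tumor and vessel genes were at similar levels in the 4 groups, with medians at 91.6%, 101% and 104% of control with SB525334, KN046 and the combination. Of the 11, SB525334 lowered F8, Vwf and Tfpi2, KN046 lowered Tfpi2 and the combination lowered the same F8, Vwf and Tfpi2 and raised Procr. The share of all genes tested that edgeR called higher was 0.394% with SB525334, 1.6% under KN046 and 1.37% with the combination.

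**Figure D4:**
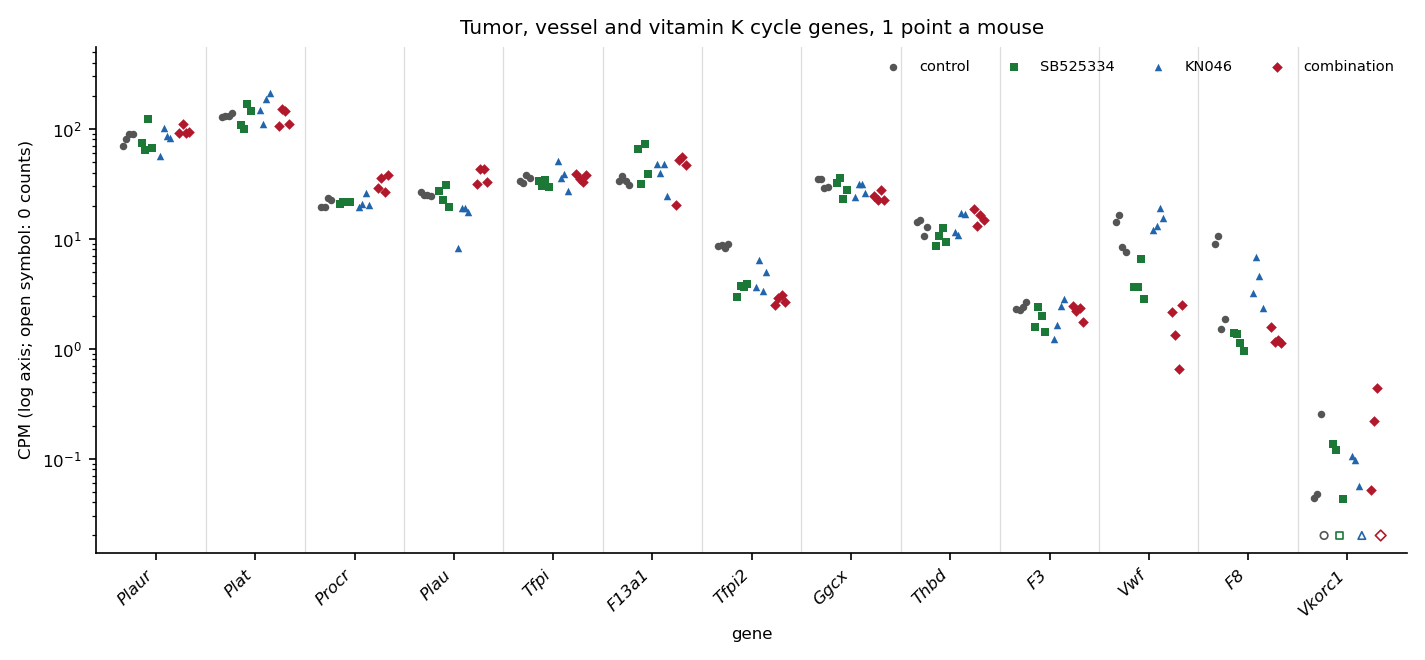
CPM (log axis) of the 11 tumor and vessel genes and the 2 vitamin K cycle genes in every mouse, with symbols as in the plot of liver-secreted genes and open symbols for 0 counts. Most genes hold their level across the 4 groups, Vwf falls to between 0.655 and 2.50 CPM in the combination, and the control mice split into pairs at F8.

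The endothelial genes rested in part on the control pairs. Vwf, the von Willebrand factor that tethers platelets and carries factor VIII, was 14.3, 16.6, 8.37 and 7.63 CPM in control, 3.62, 3.62, 6.58 and 2.84 with SB525334, 12.1, 13.03, 19.1 and 15.3 under KN046, and 2.16, 1.32, 0.655 and 2.50 with the combination. All 8 mice given SB525334 were below all control mice. By edgeR the log2 fold change of Vwf was -1.49 ± 0.34 with SB525334 (adjusted p = 0.00638), and in the combination it was -2.81 ± 0.37 (adjusted p = 1.79e-05). Against control mice 3 and 4 alone it was -0.94 with SB525334, which edgeR did not call (adjusted p = 0.226), and in the combination -2.26 (adjusted p = 0.000689). Against control mice 1 and 2 alone the values for Vwf were -1.88 (adjusted p = 0.00244) and -3.20 (adjusted p = 1.49e-05).

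F8, factor VIII, is made mainly by sinusoidal endothelium in the liver. It was 8.97 and 10.5 CPM in control mice 1 and 2, and 1.52 and 1.88 in mice 3 and 4. With SB525334 it was 1.40, 1.35, 1.12 and 0.948 CPM, with KN046 3.20, 6.81, 4.58 and 2.34, and with the combination 1.59, 1.16, 1.20 and 1.13. The combination overlapped control mice 3 and 4. By edgeR the log2 fold changes of F8 were -2.25 ± 0.52 with SB525334 (adjusted p = 0.0069) and, for both agents, -2.17 ± 0.53 (adjusted p = 0.00838), but against control mice 3 and 4 alone they were -0.49 (adjusted p = 0.678) and -0.43 (adjusted p = 0.78), and both calls were lost. Against control mice 1 and 2 alone the values for F8 were -3.00 (adjusted p = 3.84e-05) and -2.93 (adjusted p = 1.47e-05). The summed CPM of 7 sinusoidal markers was 272 and 279 in control mice 1 and 2, 133 and 137 in mice 3 and 4, 104 to 127 with SB525334, 149 to 210 under KN046 and 110 to 159 with the combination. The median marker fell further than the sum, to 16% of control with SB525334, 73.9% under KN046 and 14.7% with the combination. By edgeR 6 of the 7 were lower with SB525334 and 4 with the combination, beside 9.22% and 9.74% of all genes, and KN046 raised 1. The 10 endothelial markers summed to 44.6 to 105 CPM with SB525334, 161 to 223 under KN046 and 109 to 125 with the combination. The part of vessel content in F8 and Vwf was not tested.

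Tfpi2 encodes a matrix-bound inhibitor of plasmin and of the tissue factor complex. It was 8.57, 8.71, 8.32 and 8.88 CPM in control, 2.98, 3.70, 3.61 and 3.88 with SB525334, 3.68, 6.37, 3.35 and 4.99 under KN046, and 2.52, 2.87, 3.11 and 2.64 with the combination. No treated mouse reached a control mouse. By edgeR the log2 fold change of Tfpi2 was -1.28 ± 0.20 with SB525334 (adjusted p = 0.000197), -0.90 ± 0.20 with KN046 (adjusted p = 0.0274, from 0.000979 to 0.215 over its alternatives) and, for both agents, -1.63 ± 0.21 (adjusted p = 1.16e-05). The calls of Tfpi2 with SB525334 and with both agents held against either control pair alone (adjusted p = 0.00361 or less), and the KN046 call held against neither (adjusted p = 0.0615 and 0.11). The KN046 call was also lost without any 1 of the control mice (adjusted p = 0.059 to 0.0707) or without KN046 mouse 1 or 3 (adjusted p = 0.0884 and 0.0743). Tfpi, the related soluble inhibitor, was at 31.9 to 37.9 CPM in control and at 27.1 to 50.8 in the treated mice, with log2 fold changes of -0.13, 0.13 and 0.06 that edgeR did not call.

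Plau encodes urokinase, a plasminogen activator of tumor and inflammatory cells. It was 26.5, 24.8, 24.8 and 24.4 CPM in control, 27.3, 22.5, 31.2 and 19.4 with SB525334, 8.21, 18.9, 19.1 and 17.5 under KN046, and 31.2, 43.3, 43.1 and 33.1 with the combination. All KN046 mice were below and all combination mice above the control mice, yet against control edgeR called neither KN046 (-0.66 ± 0.21, adjusted p = 0.0833) nor the combination (0.59 ± 0.21, adjusted p = 0.0921). Against KN046 alone, the combination raised Plau by 1.24 ± 0.21 on the log2 scale (adjusted p = 0.000365). Plaur, the urokinase receptor, was at 70.2 to 89.3 CPM in control and at 91.7 to 111 in combination mice. The groups did not overlap, and the log2 fold change was 0.24 (95% interval -0.15 to 0.64, adjusted p = 0.491 by edgeR). Plat, the tissue-type activator, was at 128 to 139.8 CPM in control and between 98.7 and 213 CPM in the treated mice, with log2 fold changes of -0.03, 0.31 and -0.05 and no call.

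Procr, the endothelial protein C receptor, was 19.3, 19.5, 23.7 and 22.6 CPM in control, 20.8, 21.4, 21.6 and 21.5 with SB525334, 19.5, 20.5, 26.0 and 20.2 under KN046, and 28.8, 35.4, 26.8 and 37.8 with the combination. Every combination mouse was above every other mouse. By edgeR the combination raised Procr by 0.60 ± 0.13 on the log2 scale against control (adjusted p = 0.00327), by 0.58 ± 0.13 against KN046 (adjusted p = 0.00388) and by 0.60 ± 0.13 against SB525334 (adjusted p = 0.00965, and 0.0507 without combination mouse 4). Against control mice 3 and 4 alone the rise of Procr was 0.47 (adjusted p = 0.102), and against mice 1 and 2 alone 0.74 (adjusted p = 0.00507). Its partner Thbd, thrombomodulin, was at 10.5 to 14.96 CPM in control, 8.68 to 12.5 in SB525334 mice, 10.9 to 17.2 in KN046 mice and 12.97 to 18.6 in combination mice, and edgeR called no change against control.

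**Figure D5:**
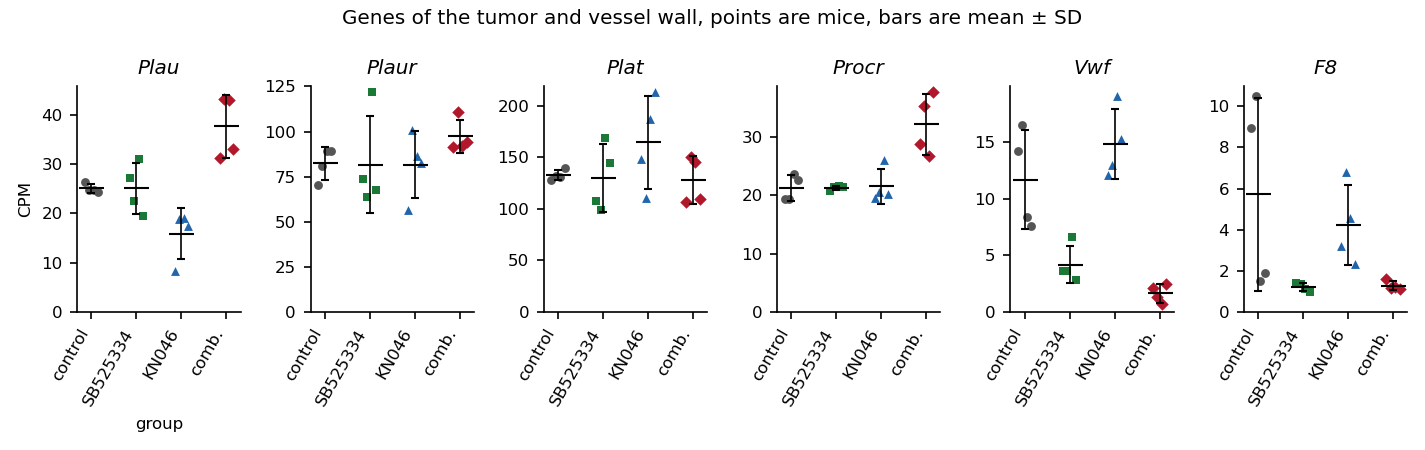
CPM of Plau, Plaur, Plat, Procr, Vwf and F8 in the 4 groups (comb. is the combination), 1 point a mouse, with a bar for the mean and whiskers for the SD, n = 4. Plau lies at 8.21 to 19.1 CPM under KN046 and 31.2 to 43.3 CPM with the combination, and Procr at 26.8 to 37.8 CPM with the combination.

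Tissue factor (F3) was low and uncalled in every comparison, at 2.27 to 2.67 CPM in control and 1.23 to 2.81 CPM in the treated mice, with log2 fold changes of -0.38, -0.24 and -0.13. F13a1, the catalytic subunit of factor XIII and a known macrophage gene, was at 30.5 to 37.6 CPM in control, 31.7 to 73.4 with SB525334, 24.6 to 47.6 under KN046 and 20.3 to 54.9 with the combination. Its log2 fold change with SB525334 was 0.64 (95% interval 0.02 to 1.25, adjusted p = 0.241 by edgeR). Ggcx, the carboxylase that vitamin K-dependent factors need, was at 29.0 to 34.8 CPM in control and 22.5 to 28.0 with the combination (log2 fold change -0.39, adjusted p = 0.0914 by edgeR). Ggcx overlaps the antisense gene Mat2a over 791 exonic bases, as Plg overlaps Slc22a3, and the strand setting of the counting is not given in the sources used here. Vkorc1, which recycles vitamin K, had 0 to 8 counts in each mouse, and shares exons with the same-strand Prss53 and a further gene model, so its level is uncertain.

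The combination was then set against each agent alone. Against KN046 it lowered 22 of the 31 genes, all 19 liver-secreted ones with F8, Tfpi2 and Vwf, and raised Plau and Procr, on a background of 14.5% of all genes called lower, 9.89% higher and 24.4% in either direction by edgeR. The groups were separated downward for 12.4% and upward for 7.9% of all genes. Pros1 was among those lowered (-0.36 ± 0.11, adjusted p = 0.0204), with overlapping groups, and the call was lost without some mice (adjusted p up to 0.0892, without combination mouse 4). Against SB525334 the combination lowered 16 genes, all liver-secreted, and raised Procr, on a background of 3.03% lower, 0.544% higher and 3.57% either way, with 4.62% of genes separated downward and 2.43% upward. The liver-secreted genes not called there were F7 (-1.26, adjusted p = 0.0502, from 0.00252 to 0.246 over its alternatives), F10 (-0.67, adjusted p = 0.453) and Pros1 (-0.05, adjusted p = 0.973). Vwf was lower in all 4 combination mice than in any SB525334 mouse but was not called by edgeR (-1.31 ± 0.37, adjusted p = 0.0623). Plau and Thbd were higher in all 4 combination mice than in any SB525334 mouse, also without a call by edgeR (adjusted p = 0.218 and 0.0862). Here DESeq2 called 1 of the 11 tumor and vessel genes lower and 2 higher. These comparisons share mice with those against control.

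Whether the effect of SB525334 differed with and without KN046 was tested as an interaction, on a background of 2.55% of genes lower, 1.73% higher and 4.28% either way by edgeR. The effect was more negative with KN046 present for 15 of the 19 liver-secreted genes, from -6.55 ± 0.65 for Fga (adjusted p = 9.18e-06) to -1.95 ± 0.54 for Proz (adjusted p = 0.0491, past the threshold in 6 of 25 alternatives), leaving out F13b, whose fitted value rests on 0 counts in the combination and is no bound. F10 had an interaction of -0.10 (95% interval -0.96 to 0.76, adjusted p = 0.928), F7 of -0.61 (-1.58 to 0.35, adjusted p = 0.537), Pros1 of -0.16 (-0.47 to 0.16, adjusted p = 0.638) and Klkb1 of -3.69 (-6.31 to -1.07, adjusted p = 0.119), and these 4 were not called. Plau had the one positive call, at 1.24 ± 0.30 (adjusted p = 0.0231), which did not hold against either control pair alone (adjusted p = 0.0661 and 0.0614).

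The other genes of the pathway are given by role. Of 12 plasma regulators of the liver that were tested, 10 were lower with SB525334 and 10 with the combination, beside 9.22% and 9.74% of all genes. With KN046 edgeR called 0, with 3 at an unadjusted p under 0.05 and 0 by DESeq2. Serpind1 (-4.09), Serpinc1 (-3.98) and Pzp (-3.84) fell most on the log2 scale with SB525334, and Kng2, Habp2 and Serpina1b had the lowest fitted values with the combination. Kng2 had 1 count in the 4 combination mice, 4380-fold lower than control by an exact Poisson ratio (787 to 173000), Habp2 had 2 counts (1050-fold, 290 to 8660) and Serpina1b 46 (801-fold, 600 to 1090), so their order is not resolved. Serpinc1, which encodes antithrombin, was at 237 to 252 CPM in control, 3.06 to 28.5 with SB525334 and 0.276 to 0.565 with the combination. Thrombopoietin (Thpo), also of the liver, was not called, at 5.27 to 7.999 CPM in control and 3.31 to 5.70 with the combination. Kng1 and Kng2, like Serpina1a and Serpina1b, are near-identical copies whose reads the counting may have split.

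Of 16 further regulators and cofactors, SB525334 lowered 3 and the combination 2, against 9.22% and 9.74% of all genes. With KN046 edgeR called 0, with 3 at an unadjusted p under 0.05 (2 lower and 1 higher) and 2 by DESeq2 (1 lower and 1 higher). Masp1, a complement protease that can also cut fibrinogen, fell by 1.88 ± 0.38 on the log2 scale with SB525334 (adjusted p = 0.00203 by edgeR) and by 4.49 ± 0.45 with the combination (adjusted p = 5.87e-07). Nid1 and Tgm2 made up the rest, with Nid1 at -1.10 and -0.82 and Tgm2 called with SB525334 alone. Nid1 was not called against control mice 3 and 4 alone (adjusted p = 0.0916 and 0.44), nor Tgm2 (adjusted p = 0.151). The Nid1 call in the combination was also lost without control mouse 1 or 2 or combination mouse 2 or 4, and the Tgm2 call without SB525334 mouse 3.

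Of 12 thrombin and platelet receptors and platelet genes tested, Clec1b, which sinusoidal endothelium also expresses, was lower with SB525334 (-2.92) and the combination (-2.71), and the platelet gene Ppbp with SB525334 (-2.69). These 2 and 1 genes stand beside 9.22% and 9.74% of all genes called lower. The Ppbp call passed in 11 of 18 alternatives (adjusted p up to 0.147) and was lost without control mouse 3 or 4 or SB525334 mouse 1, 2 or 4. The thrombin receptor gene F2r rose by 0.57 ± 0.12 on the log2 scale with KN046 (adjusted p = 0.0237 by edgeR), a call that passed in 9 of 18 alternatives. It was lost against either control pair alone, with the pairs merged (adjusted p = 0.212), with only the groups compared, without control mouse 2, 3 or 4 and without KN046 mouse 1 or 3. The combination raised F2rl3, a thrombin receptor of platelets, by 2.11 ± 0.44 (adjusted p = 0.00206), from 0.507 to 1.15 CPM in control to 3.13 to 3.88 CPM, and F2rl1 by 0.63 ± 0.20 (adjusted p = 0.0499, past the threshold in 6 of 18 alternatives and lost without any 1 of the control mice or without combination mouse 2, 3 or 4), beside 1.37% of all genes called higher. The platelet list as a whole summed to 28.2 to 39.4 CPM in control and 26.8 to 60.4 with the combination, and Pf4 was at 13.3 to 24.4 CPM in control and 16.2 to 50.5 with the combination, which edgeR did not call (adjusted p = 0.225).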

How the data were processed

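RNA from tumor tissue of 16 mice was sequenced on an Illumina HiSeq. Per the labels, the authors used Cutadapt 2.7 for trimming, HISAT2 2.2.1 for alignment (GRCm39) and HTSeq 2.0.4 for gene counting, and deposited raw counts per gene. Settings for strand and multi-mapped reads are not given in the sources used here. Their normalized values were not used. Identifiers were paired with symbols, positions and exon lengths from GENCODE M39 (21770 of 21959 matched).

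edgeR 4.0.16 (R 4.3.3) was run on these counts. Genes were kept by filterByExpr at minimum count 10, scaled by TMM and fitted by quasi-likelihood across the 4 groups, and p-values of the 13968 genes kept were adjusted by the Benjamini-Hochberg method (threshold 0.05). SEs are the log2 fold change divided by the square root of F, and 95% intervals use that test's degrees of freedom. The biological coefficient of variation was 20.1%. The pipeline was tested on simulated data. The total count per mouse, 18368994 to 23877131, limits low values, and intervals and floors cover counting error only. Each treatment was compared with control and the combination with each agent, and the interaction was tested. The 32 genes, the wider lists and the tests were chosen with earlier results of these data known. All 32 genes are named, and other genes by count, with at most the 3 largest calls per direction and comparison named, to which Serpinc1, Thpo, Pf4, Alb and Ass1 were added after their values were seen. Alternatives were DESeq2 1.42.0, other scalings and filters, the groups compared alone, the replicate block, merged control pairs, the study's thresholds and each mouse left out. Single control pairs and the hepatocyte list without Ass1 were added after seeing the data.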

Additional observations from a re-analysis of the deposited data

Results flagged for a closer look

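In groups of 4 mice, the highest or lowest mouse stood far from the rest in 7 of the 114 gene and group combinations examined, where chance gives about 5.7. Fgg was at 12.8 CPM in SB525334 mouse 4, against 48.7 to 54.1 in the others. Pros1 was at 63 CPM in SB525334 mouse 3, against 54.1 to 55.5. F8 was at 1.59 CPM in combination mouse 1, against 1.13 to 1.20. Plau was at 8.21 CPM in KN046 mouse 1, against 17.5 to 19.1. Plaur was at 122 CPM in SB525334 mouse 3, against 63.8 to 73.7, and at 111 CPM in combination mouse 2, against 91.7 to 94.4. Procr was at 26 CPM in KN046 mouse 3, against 19.5 to 20.5.

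The effect of SB525334 on the log2 scale differed with and without KN046, by edgeR's interaction test, for 16 genes. The difference was -5.505 for F2, -2.596 for F5, -3.779 for F9, -5.381 for F11, -5.527 for F12 and -7.328 for F13b, the last fitted from 0 counts in the combination. It was -6.552 for Fga, -6.537 for Fgb, -6.018 for Fgg and -6.135 for Plg. Proc had -5.531, Proz -1.949, Kng1 -5.61, Cpb2 -5.921 and Hrg -5.449, and Plau had 1.244. The hepatocyte markers gave a median of -5.84 in the same test, 14 of 15 called.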

How the results depend on the processing

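Of 1846 values of called genes under an alternative, 1793 kept their direction and stayed past the threshold, 53 kept their direction and lost the call, and 0 reversed. The count of genes called with KN046 was 1. It was 2 with DESeq2, 0 with only the groups compared, 0 with the control pairs merged, 0 with either control pair alone, and 0 to 4 when mice were left out in turn. In the other comparisons the count stayed within 1.5 times its value under every alternative run. The replicate number as a block gave 21, 1, 22, 24, 18 and 15 genes, against 21, 1, 22, 24, 17 and 16 without it, for the treatments against control, the combination against KN046 and against SB525334, and the interaction. Mice with the same number were treated as unpaired in the main fit. The 24 correlations of their deviations ran from -0.483 to 0.527, with 10 over 0.1, and cannot settle whether a pairing exists. The median ratio of liver-secreted genes to the hepatocyte list in the combination was 0.293 of control, and 1.23 without Ass1. The Proz interaction passed in 6 of 25 alternatives and F8 against KN046 in 12 of 16. Low counts limit F9, F11, F13b, Klkb1, Cpb2, Proc and Hrg there.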

Other observations

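Markers of some other cell types also moved. The counts below stand beside 9.22%, 2.4% and 9.74% of all genes called lower by edgeR with SB525334, KN046 and the combination. The 1 of 8 neutrophil markers called with the combination is near that share. The summed CPM of 6 Kupffer cell markers was 314 and 332 in control mice 1 and 2, 162 and 164 in mice 3 and 4, 9.95 to 25.1 with SB525334, 53.7 to 393 with KN046 and 1.80 to 13.1 with the combination. Of the 6, 5 were lower with SB525334 and 5 with the combination by edgeR, and with KN046 edgeR called 0, with 1 at an unadjusted p under 0.05 and 0 by DESeq2. The summed CPM of 8 epithelial tumor markers was 151 to 249 in control, 38.7 to 51.1 with SB525334, 124 to 202 with KN046 and 6.93 to 16.6 with the combination. The median marker stood at 26.6%, 80% and 24% of control. Of 7 tested, edgeR called 2 lower with SB525334 and 4 with the combination, and 0 with KN046 (also 0 at an unadjusted p under 0.05 and by DESeq2). Which cells this sum reflects was not tested. Of 8 neutrophil markers, 6 were lower with SB525334 (median log2 fold change -3.87), 1 under KN046 (median -1.62) and 1 with the combination (median -1.24), by edgeR. DESeq2 called 6, 5 and 2 of them lower, and their summed CPM was 161 to 183 in control, 70.9 to 98.0 with SB525334, 49.8 to 105 under KN046 and 79.7 to 200.4 with the combination. The 10 fibroblast markers had medians of 0.10, -0.06 and 0.17, with 0, 1 and 3 called lower by edgeR (0, 1 and 3 at an unadjusted p under 0.05 and by DESeq2). In the higher direction edgeR and DESeq2 called 0 in each, with 1, 0 and 3 at an unadjusted p under 0.05.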
